A study of Homo sapiens with 18 samples.

Results

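The genes described here are 51 genes that load and run the DNA replication fork: origin licensing factors, MCM and GINS subunits, replicative polymerases, the sliding clamp and its loader, and replication-coupled chromatin assembly factors. They were taken by name from the deposited gene count table, all 51 were found among its 33121 listed genes, and all 51 passed the low-count filter with which 13676 genes were tested. The libraries are from RPE-1, a human retinal pigment epithelial line immortalized with hTERT (the catalytic subunit of telomerase), and poly(A) RNA was sequenced. There are 6 groups of 3 libraries: siControl cells received a control siRNA, siMlx cells one that targets MLX and siMondoA cells one that targets MondoA, encoded by MLXIP, and each kind was either left untreated or given doxorubicin (DXR), an anthracycline that poisons topoisomerase II. MondoA is a glucose-responsive transcription factor that binds DNA with MLX as its partner. All groups are the same cell line and were transfected with siRNA. Transfection came 2 days before DXR, which was given at 150 ng/ml for 3 days. Untreated library names hold the tag D0 and DXR library names D5, which the labels do not explain. A difference in harvest day, and with it in time since transfection, thus cannot be told apart from the effect of DXR. Nothing in the labels says that the 3 libraries of a group came from separate cultures, so the p-values measure the spread between these libraries, which may be technical.

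Replication is prepared before S phase, when the origin recognition complex, CDC6 and CDT1 load rings of MCM2 to MCM7 onto DNA and geminin (GMNN) later blocks their reloading. The kinase CDC7 with DBF4, together with CDC45, the GINS complex and MCM10, turns the loaded rings into the moving helicase, behind which the polymerases, PCNA, its loader RFC, FEN1 and LIG1 copy and join the strands. Most of these genes are transcribed in proliferating cells as they approach S phase, many under E2F factors, and are at low levels in quiescent and senescent cells.

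Promoter sequence was examined because these genes moved together. RefSeq promoters (250 bases before to 50 after the start, GRCh38.p14) were matched for 44 of the 51 genes; MCM4, MCM5, GINS4, POLD3, DSCC1, RPA2 and RPA3 were not matched. Stretches from 7 of them, chosen because they show each combination of words met here and 1 gene with none, are shown 5′ to 3′ on the gene's strand, with E2F words (TTTCCCGC, TTTGGCGC, TTTCGCGC or TTTGCCGC, on either strand) and the E-box word CACGTG, the core of sites bound by MLX and its relatives, in capitals. CDT1 and GINS2 carry 1 E2F word each near the start. MCM6 carries a pair of stretches in each of which 2 different E2F words overlap on opposite strands. MCM7 carries both kinds of word, PCNA carries 1 E2F word and FEN1 carries an E-box. RFC1 carries neither in this stretch or in the rest of its promoter.
CDT1 (chr16:88803744-88803773, plus strand, within annotated UTR): cagggcgcccGCGGGAAAtttggcgggaac
GINS2 (chr16:85688970-85688999, minus strand, within annotated UTR): gggctctcgccgtgGCGGGAAAacggcggc
MCM6 (chr2:135876444-135876603, minus strand, ending 1 base before the start): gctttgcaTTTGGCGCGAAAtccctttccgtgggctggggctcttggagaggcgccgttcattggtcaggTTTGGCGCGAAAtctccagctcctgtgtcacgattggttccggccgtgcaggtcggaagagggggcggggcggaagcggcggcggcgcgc
MCM7 (chr7:100101398-100101427, minus strand, within annotated UTR): ccggtCACGTGgggggcgacgTTTCGCGCc
PCNA (chr20:5126627-5126702, minus strand, upstream of the gene): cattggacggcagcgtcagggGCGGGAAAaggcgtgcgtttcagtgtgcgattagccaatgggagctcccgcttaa
FEN1 (chr11:61792866-61792895, plus strand, within annotated UTR): gcgtggcgagcaggtCACGTGacgggagcg
RFC1 (chr4:39366376-39366442, minus strand, upstream of the gene): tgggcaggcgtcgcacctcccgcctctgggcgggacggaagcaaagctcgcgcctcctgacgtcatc
The 8-base E2F words were in 23 of the 44 matched promoters (52.3%), against 3.99% of the 27305 genes with a promoter in the table and 6.57% of the 9830 tested genes with one. Restricted to the 250 bases before the start, 15 of the 44 (34.1%) held one, against 2.79% of the 35116 promoters in the table, which are counted singly although a gene can have more than 1. The E-box was in 8 of the 44 (18.2%), against 8.77% of genes with a promoter and 12.5% of tested genes. The CHR word TTTGAA was in 2 (4.55%), against 15.2% of the 35116 promoters. A pair of E-boxes spaced by 5 bases was in 0 of the 44, and in 2 of the 35116 promoters (0.0057%), too few for the 0 to say anything of these genes. A word match is a description of letters and does not show that a factor binds there.

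Total counts ran from 15503423 to 29219280 per library, and the lowest count of any of the 51 genes in any library was 9. The knockdowns were seen in every library: MLXIP was at 69.5, 72.9 and 63.7 CPM in untreated siControl and at 3.34, 4.57 and 3.63 CPM in untreated siMondoA libraries, and MLX at 25.8, 27.4 and 25.7 and, with siMlx, 6.79, 7.12 and 7.10 CPM (CPM, counts scaled to the library total after TMM normalization). MLX itself was higher with siMondoA, at 52.1, 48.3 and 47.2 CPM. Of 8 retinal pigment epithelium markers 2 (MITF and OTX2) exceeded 1 CPM in a group, and RPE65, RLBP1 and TYR were below 1 CPM in all 6 group means. Summed blood markers ran from 0.225 to 1.92 CPM with HBB at 0, and endothelial markers from 2.69 to 6.20 CPM. Fibroblast markers (4 of 7 over 1 CPM, summed 149 to 451 CPM) and keratins (2 of 3, summed 324 to 1348 CPM) were present. Summed keratins lay at 497 to 688 and, with DXR, 1119 to 1171 CPM in siControl, at 324 to 421 and 941 to 1017 CPM with siMlx, and at 568 to 790 and 1268 to 1348 CPM with siMondoA. Summed fibroblast markers lay at 181 to 238 and, with DXR, 269 to 356 CPM in siControl, at 149 to 267 and 311 to 451 CPM with siMlx, and at 205 to 262 and 296 to 361 CPM with siMondoA. Their part in the falls with DXR described here was not tested.

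Against the mean of the untreated siControl libraries, the median of the 51 genes stood at log2 -0.11, -0.12 and 0.22 in the siControl libraries and at -0.20, -0.11 and 0.11 in the siMlx libraries. It stood at -1.53, -1.49 and -1.04 in untreated siMondoA. With DXR it stood at -1.50, -1.42 and -1.52 (siControl), -1.97, -2.01 and -2.10 (siMlx) and -2.23, -1.81 and -2.07 (siMondoA). Untreated siControl and siMlx thus overlapped, all other libraries lay lower, and replicate 3 was the highest of the 3 in each untreated group. These are bulk libraries, so fewer cycling cells and less RNA per cell cannot be told apart. The 51 genes together took 0.241% to 0.306% of counts in untreated siControl, 0.110% to 0.148% in untreated siMondoA and 0.105% to 0.112% in siControl with DXR.

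**Figure D1:**
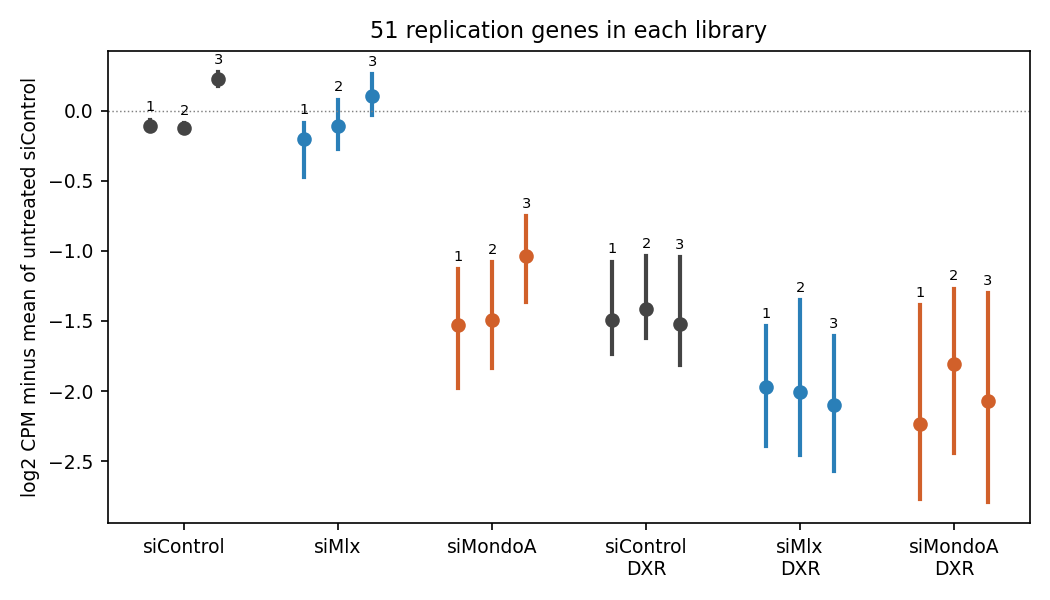
Median (point) and interquartile range (line) of the 51 genes in each of the 18 libraries, as log2 CPM minus the gene's mean in untreated siControl, with the replicate number above each line. Untreated siControl and siMlx libraries lie between -0.20 and 0.22, untreated siMondoA between -1.53 and -1.04, and the DXR libraries between -2.23 and -1.42.

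The first comparison asked what siMondoA did in untreated cells. The labels name no other siRNA against MLXIP or MLX. Loss of either target and other effects of its siRNA thus cannot be told apart. With siMondoA 48 of the 51 genes fell and 0 rose, where 23.3% of all tested genes fell and 23.3% rose. Their median log2 fold change was -1.35, which leaves 39.3% of the control level, against 0.02 for all tested genes. In 49 of the 51 every siMondoA library lay below every siControl library, which held for 27.2% of tested genes. RFC1, RPA1 and RPA3 were not called. The falls were largest in the licensing genes (median log2 -2.19) and smallest in the polymerase genes (-0.96) and the single-stranded DNA binding and fork protection genes (-0.89). Leaving out any 1 library left 48 or 49 genes lower.

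All 5 origin loading genes fell. CDT1, which brings MCM rings to the origin, was at 27.1, 30.4 and 39.2 CPM in siControl and 5.06, 5.75 and 8.77 CPM in siMondoA, log2 -2.32 (SE 0.17, edgeR adjusted p = 1.01e-09). The highest siMondoA library of CDT1 thus stood below the lowest control. CDC6, the loading ATPase, was at -2.29, ORC1, a subunit of the origin recognition complex, at -2.19, and ORC6, another subunit, at -2.08. Geminin, the inhibitor of CDT1, fell least, from 31.03, 32.8 and 42.1 to 12.4, 13.9 and 17.95 CPM, log2 -1.27 (SE 0.15, edgeR adjusted p = 1.33e-06), and its groups did not overlap either.

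All 8 MCM genes fell. MCM10, which helps to start the helicase, fell most, from 17.3, 13.7 and 23.1 to 2.62, 2.64 and 6.23 CPM, log2 -2.28 (SE 0.24, edgeR adjusted p = 2.53e-07). Within the ring, MCM2 fell most (log2 -1.89), from 74.5, 73.99 and 94.6 to 15.8, 19.4 and 30.9 CPM, and MCM4 least (log2 -1.21, SE 0.11, edgeR adjusted p = 1.82e-08), from 143, 132 and 167 to 60.3, 54.9 and 77.1 CPM. MCM3 went from 107, 106 and 131 to 32.8, 35.3 and 44.1 CPM (log2 -1.62) and MCM5 from 95.00, 96.3 and 119 to 32.00, 33.3 and 51.2 CPM (log2 -1.42). The groups did not overlap for any of these 4. MCM6 went from 63.00, 61.4 and 74.1 to 22.8, 24.8 and 29.7 CPM (log2 -1.36) and MCM7 from 147, 162 and 199 to 47.7, 56.3 and 79.2 CPM (log2 -1.47), again without overlap. MCM8, a relative outside the licensing ring that acts in DNA repair, was at -1.28.

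The 7 helicase activation genes all fell. GINS1, a subunit of the GINS complex, went from 25.5, 23.8 and 33.2 to 2.73, 5.41 and 6.11 CPM, log2 -2.53 (SE 0.21, edgeR adjusted p = 6.81e-09), the second lowest value of the 51. CDC45 stood at -2.33, GINS2 at -1.69, GINS4 at -1.53 and GINS3 at -1.42. The kinase pair fell less: CDC7 went from 12.7, 13.04 and 15.6 to 7.74, 7.34 and 9.25 CPM, log2 -0.78 (SE 0.17, edgeR adjusted p = 0.00093), and its partner DBF4 stood at -0.89. The groups did not overlap for any of the 7.

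All 9 polymerase and primase genes fell, over a wide range. POLE2, an accessory subunit of the leading strand polymerase, fell most, from 4.95, 6.26 and 6.42 to 1.39, 1.47 and 2.12 CPM, log2 -1.83 (SE 0.22, edgeR adjusted p = 8.74e-07). POLA1, the catalytic subunit of the priming polymerase, stood at -1.56, its partners POLA2 at -1.26 and PRIM2 at -0.87, the catalytic subunits POLD1 and POLE at -0.72 and -0.87, and POLD3 at -0.96. POLD2, an accessory subunit of polymerase delta, changed least of all genes called, from 124, 137 and 145 to 115, 115 and 118 CPM, log2 -0.22 (SE 0.06, edgeR adjusted p = 0.00676). The POLD2 groups did not overlap, but with the 3 untreated libraries numbered 3 left out its adjusted p was 0.053. PRIM1 stood at -1.43.

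Of the 10 clamp, clamp loader and Okazaki fragment genes 9 fell. FEN1, the flap nuclease, fell most, from 83.4, 83.6 and 104 to 22.9, 25.1 and 35.2 CPM, log2 -1.71 (SE 0.13, edgeR adjusted p = 1.81e-09). PCNA, the sliding clamp, went from 88.9, 80.7 and 107 to 40.1, 37.7 and 55.1 CPM, log2 -1.07 (SE 0.14, edgeR adjusted p = 2.88e-06), with no overlap. The small subunits RFC2, RFC3, RFC4 and RFC5 stood at -1.41, -1.32, -1.19 and -1.03. RFC1, the large subunit of the same loader, was at 76.8, 67.3 and 72.4 CPM in siControl and 68.6, 67.2 and 74.2 CPM in siMondoA, log2 -0.05 (SE 0.06, edgeR adjusted p = 0.556), and its groups overlapped. LIG1, the ligase that joins Okazaki fragments, stood at -1.29, RNASEH2A, which removes RNA from DNA, at -1.35, and DSCC1, of an alternative clamp loader, at -1.30. The promoter of RFC1 is the one shown above with neither word, but those of RFC2, RFC4, RFC5 and RNASEH2A, which fell, held neither as well. A link between the words and these changes was not tested.

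Fork protection and single-stranded DNA binding genes split. CLSPN, which carries the checkpoint signal at stalled forks, had the lowest value of the 51, going from 21.9, 19.8 and 28.1 to 2.17, 2.52 and 6.17 CPM, log2 -2.73 (SE 0.25, edgeR adjusted p = 2.97e-08). TIMELESS, its fork partner, stood at -1.16, WDHD1 at -1.35 and TIPIN at -0.89. Of the 3 subunits of RPA, the protein that coats single-stranded DNA, RPA2 fell (log2 -0.64). RPA1 was at 90.6, 87.1 and 108 and 87.3, 80.99 and 97.02 CPM, log2 -0.11 (SE 0.08, edgeR adjusted p = 0.273), with overlapping groups. RPA3 was at 14.9, 17.01 and 20.1 and 14.3, 13.3 and 14.6 CPM, log2 -0.30 (SE 0.13, edgeR adjusted p = 0.0694), without overlap, and was called with the replicate number as a block (edgeR adjusted p = 0.0441).

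All 5 chromatin genes fell. ASF1B, a histone chaperone, fell most, from 50.7, 52.1 and 72.1 to 11.6, 12.7 and 22.9 CPM, log2 -1.91 (SE 0.21, edgeR adjusted p = 2.97e-07). CHAF1A and CHAF1B, subunits of the assembly factor CAF-1, stood at -1.74 and -1.70, and UHRF1, which recruits the maintenance methyltransferase, at -1.70. DNMT1, that methyltransferase, fell least, from 158, 153 and 178 to 96.6, 104 and 115 CPM, log2 -0.63 (SE 0.08, edgeR adjusted p = 1.4e-06). The groups did not overlap for any of the 5.

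**Figure D2:**
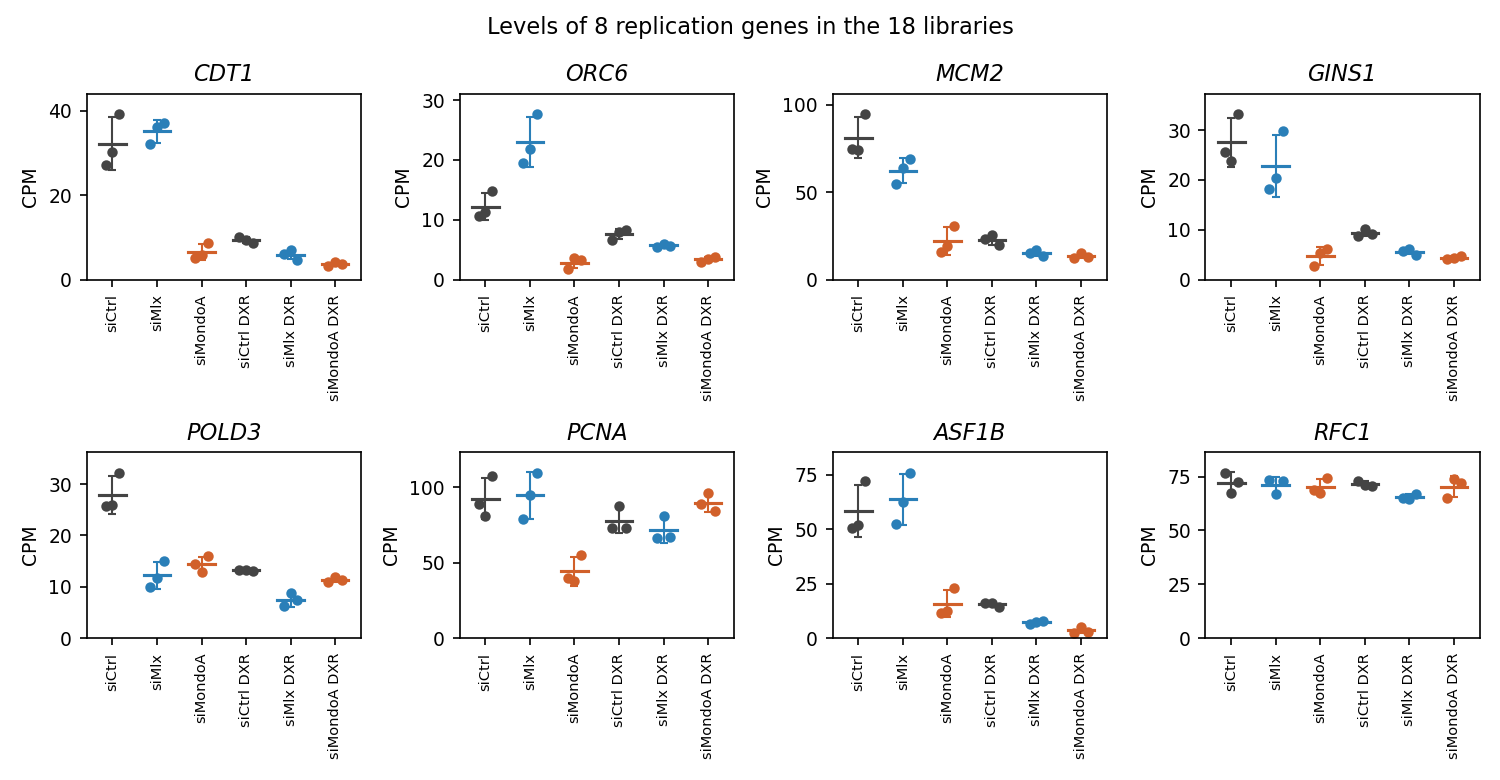
CPM of 8 of the 51 genes in the 18 libraries, each panel starting at 0, with the mean (horizontal line) and SD (bar) of 3 libraries per group. CDT1, MCM2, GINS1 and ASF1B are low in all siMondoA and DXR libraries, ORC6 is highest and POLD3 low in untreated siMlx, PCNA has its lowest group mean in untreated siMondoA, and RFC1 lies between 64.7 and 76.8 CPM in all 18.

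The same question was asked of siMlx. In untreated cells siMlx lowered 9 of the 51 genes and raised 5, where 23% of all tested genes fell and 24.9% rose, so that the share of these genes called was not above that of the table. Their median log2 fold change was -0.06 (0.02 for all tested genes). Every siMlx library lay below every control for 9 and above for 4, against 25.9% and 28.1% of tested genes. The count lower was 3 without siControl replicate 3, siMlx replicate 1 or siMlx replicate 2 and 14 without siMlx replicate 3. The count higher was 3 without siControl replicate 1 or 2.

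ORC6 (chr16:46689643-46698394, GRCh38) was the gene raised most, from 10.6, 11.3 and 14.8 to 19.5, 21.9 and 27.7 CPM, log2 0.91 (SE 0.16, edgeR adjusted p = 8.51e-05), with no overlap between groups. With siMondoA it fell to 1.73, 3.57 and 3.26 CPM. RPA1 went from 90.6, 87.1 and 108 to 121, 125 and 136 CPM, log2 0.42 (SE 0.08, edgeR adjusted p = 0.000214). POLE, the catalytic subunit of the leading strand polymerase, went from 48.2, 51.6 and 58.8 to 65.9, 68.6 and 70.6 CPM, log2 0.37 (SE 0.08, edgeR adjusted p = 0.000752). The siMlx libraries lay above all controls for both RPA1 and POLE. POLD1 (log2 0.40) and DSCC1 (log2 0.51) were also called higher. POLD1 was at 22.3, 21.3 and 31.3 and 29.5, 37.9 and 31.9 CPM, with overlap, and DSCC1 at 5.99, 5.04 and 7.47 and 7.97, 8.53 and 9.96 CPM, without. Their calls were lost with 1 of several libraries left out, at adjusted p up to 0.103 and 0.0944, siControl replicates 1 and 2 being such libraries for both genes.

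POLD3 (chr11:74493851-74669117), an accessory subunit of polymerase delta, was the gene lowered most by siMlx, from 25.8, 25.8 and 32.2 to 9.99, 11.6 and 15.03 CPM, log2 -1.19 (SE 0.13, edgeR adjusted p = 2.66e-07). With siMondoA it fell to 14.4, 12.9 and 15.9 CPM, and the siMondoA and siMlx libraries overlapped. UHRF1 went to 66.1, 65.1 and 70.5 from 102, 99.05 and 125 CPM, log2 -0.69 (SE 0.10, edgeR adjusted p = 7.05e-06), and CHAF1B to 16.2, 18.6 and 21.1 from 25.6, 26.8 and 31.1 CPM, log2 -0.58 (SE 0.12, edgeR adjusted p = 0.000374). For POLD3, UHRF1 and CHAF1B the siMlx and control libraries did not overlap, and these 3 with ORC6, RPA1 and POLE kept their call in each alternative run. The other 6 lowered genes were ORC1 (-0.45), CDC6 (-0.38), GINS3 (-0.37), MCM3 (-0.32), RFC4 (-0.32) and FEN1 (-0.31). ORC1 was at 17.1, 16.9 and 22.9 and 12.6, 14.04 and 14.97 CPM, GINS3 at 13.9, 13.9 and 17.9 and 10.4, 11.6 and 13.3 CPM, and RFC4 at 19.3, 18.99 and 25.1 and 14.8, 15.7 and 20.2 CPM in siControl and siMlx. Each of these 6 lost its call without siControl replicate 3, siMlx replicate 1 or siMlx replicate 2, at adjusted p up to 0.137 to 0.232. With upper-quartile scaling ORC1, CDC6, RFC4 and FEN1 lost it as well, and ORC1 also with DESeq2.

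Of the 51 genes 37 were not called with siMlx. CDT1 was at 32.1, 36.3 and 37.2 CPM, log2 0.13 (SE 0.14, edgeR adjusted p = 0.489), and overlapped the control. MCM2 was at 54.5, 63.6 and 69.02 CPM, log2 -0.38 (SE 0.16, edgeR adjusted p = 0.0518), below every control, and was called with RLE scaling (edgeR adjusted p = 0.047) and without the low-count filter (4.71e-06), among others. The groups overlapped for MCM10, DBF4, TIMELESS and ASF1B, as for CDT1: their siMlx libraries were at 17.3, 16.6 and 22.5 CPM, 29.5, 30.95 and 38.1 CPM, 49.7, 56.5 and 65.1 CPM and 52.5, 62.6 and 75.96 CPM. In log2 fold change MCM10 was at 0.05, DBF4 at 0.21, TIMELESS at -0.28, ASF1B at 0.13, PCNA at 0.03 and RFC1 at -0.02, with edgeR adjusted p from 0.0785 to 0.858. The siRNAs were compared directly: 49 of the 51 genes were lower with siMondoA than with siMlx (30.4% of tested genes lower), at a median log2 of -1.27 (-0.01 for all tested genes). RFC1 (log2 -0.02) and POLD3 (log2 0.23, SE 0.14, edgeR adjusted p = 0.16) were the other 2. ORC6 differed most, at -2.99 (SE 0.19, edgeR adjusted p = 8.5e-11).

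**Figure D3:**
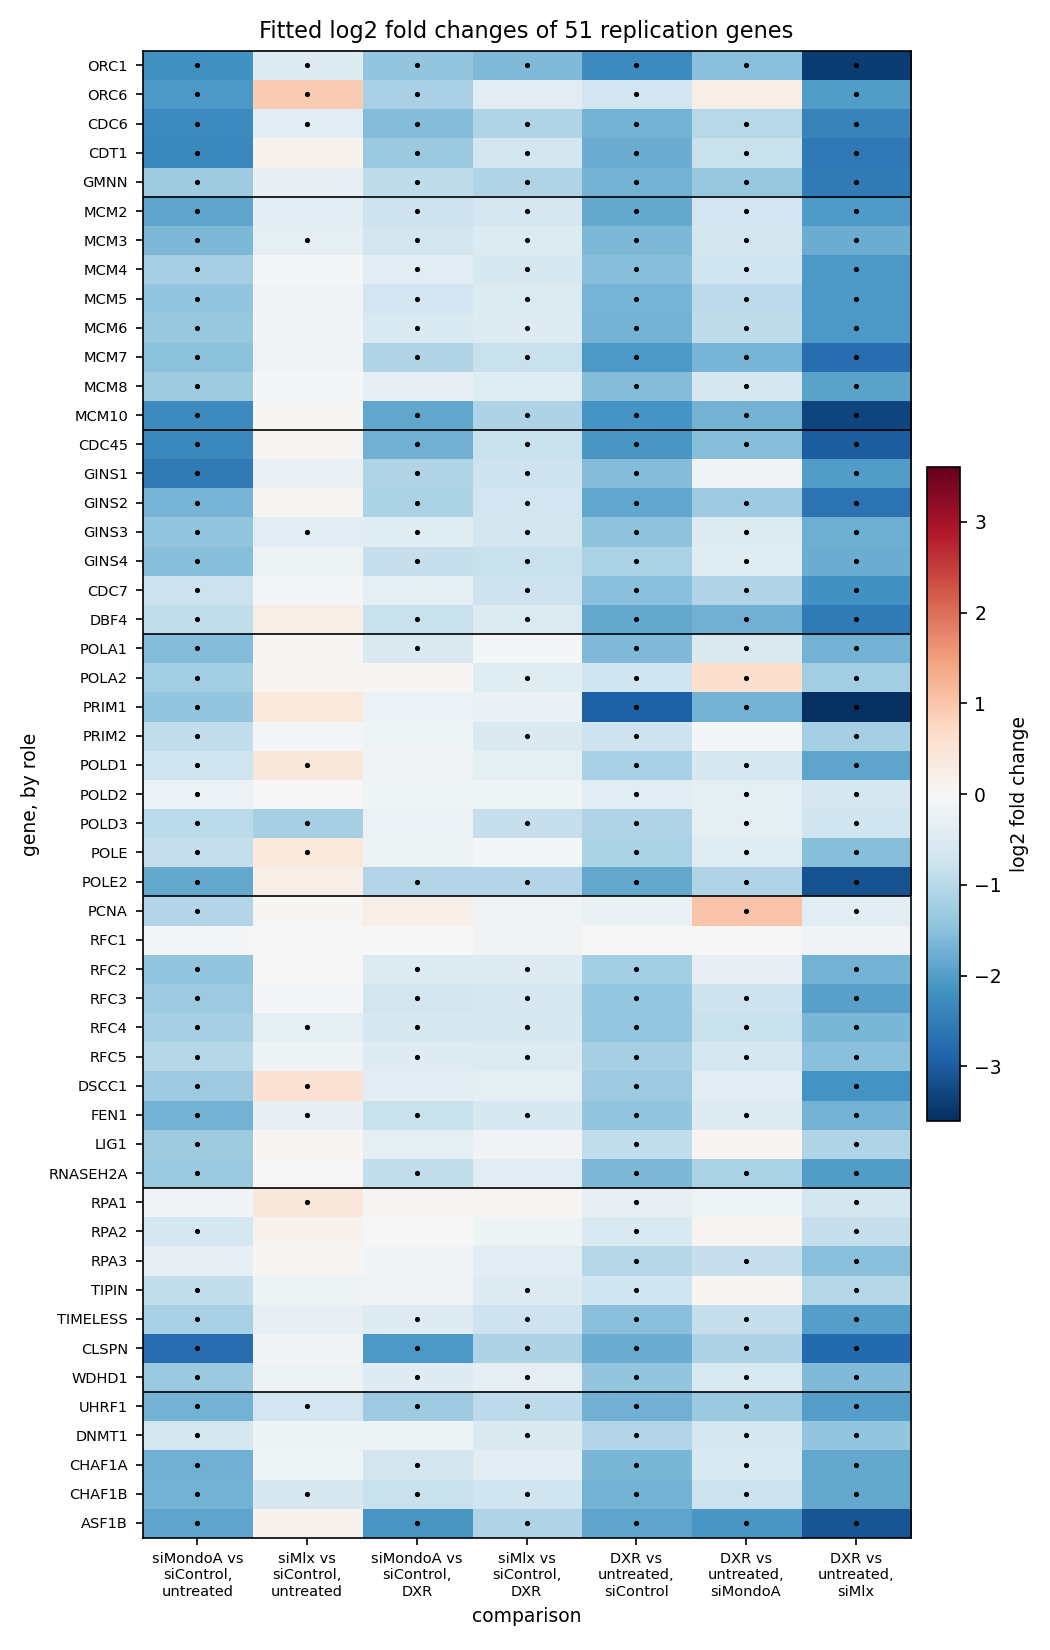
Fitted log2 fold changes of the 51 genes (rows, grouped by role between black lines) in 7 comparisons (columns), with a dot where the edgeR adjusted p was under 0.05. The columns for siMondoA in untreated cells and for DXR in siControl and siMlx cells are lower almost throughout (48, 49 and 50 genes), the siMlx column in untreated cells holds 9 lower and 5 higher genes, and RFC1 has no dot.

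DXR was then compared with no treatment in siControl cells. It lowered 49 of the 51 genes and raised 0 (28.6% of tested genes fell and 28.1% rose), at a median log2 of -1.51 (-0.01 for all tested genes), and the groups did not overlap for those 49 (32% of tested genes lay lower without overlap). The count was 49 without any 1 library. PCNA and RFC1 were not called. PCNA was at 72.9, 87.3 and 73.1 CPM against 88.9, 80.7 and 107 CPM, log2 -0.25 (SE 0.13, edgeR adjusted p = 0.119), and the groups overlapped. Without the low-count filter this gene was called (edgeR adjusted p = 0.000427). RFC1 was at 72.96, 71.3 and 70.5 CPM, log2 -0.01 (SE 0.06, edgeR adjusted p = 0.864).

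By role, the medians with DXR were log2 -1.71 for origin loading, -1.69 for MCM, -1.55 for helicase activation, -1.13 for polymerases and primase, -1.28 for clamp and Okazaki fragment processing, -1.02 for single-stranded DNA binding and fork protection and -1.69 for chromatin. In origin loading ORC1 fell most, from 17.1, 16.9 and 22.9 to 4.89, 3.94 and 2.92 CPM, log2 -2.28 (SE 0.20, edgeR adjusted p = 1.49e-08). ORC6 fell least, from 10.6, 11.3 and 14.8 to 6.67, 7.94 and 8.25 CPM, log2 -0.68 (SE 0.17, edgeR adjusted p = 0.00217). Of the MCM genes MCM10 went to 4.08, 4.81 and 3.69 CPM (log2 -2.11) and MCM4 to 53.8, 49.5 and 49.5 CPM (log2 -1.54), the lowest and the highest of the 8. CDC45 went from 18.6, 19.9 and 28.2 to 4.59, 6.35 and 4.55 CPM, log2 -2.11 (SE 0.24, edgeR adjusted p = 3.28e-07), and GINS4 from 28.99, 31.98 and 39.5 to 13.96, 16.4 and 15.1 CPM, log2 -1.15 (SE 0.15, edgeR adjusted p = 3.08e-06). In none of these did a DXR library reach the lowest untreated one.

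PRIM1, the catalytic primase subunit, fell most of the 51, from 10.5, 8.45 and 12.4 to 1.12, 1.89 and 1.10 CPM, log2 -2.93 (SE 0.31, edgeR adjusted p = 1.78e-07). POLD2 fell least of the polymerase genes, from 124, 137 and 145 to 98.3, 98.1 and 107 CPM, log2 -0.42. RNASEH2A, the catalytic subunit of RNase H2, fell most of the clamp and Okazaki fragment genes, from 34.6, 34.8 and 49.3 to 13.4, 12.7 and 12.9 CPM, log2 -1.61 (SE 0.17, edgeR adjusted p = 1.38e-07). CLSPN went to 6.62, 7.53 and 6.33 CPM (log2 -1.77), and RPA1 to 74.03, 79.1 and 77.9 CPM (log2 -0.31, SE 0.08, edgeR adjusted p = 0.0028), the lowest and highest of their role. ASF1B went to 16.2, 16.02 and 14.4 CPM (log2 -1.91) and DNMT1 to 80.6, 71.6 and 81.8 CPM (log2 -1.06). RPA1 and DNMT1 did not overlap their untreated levels of 90.6, 87.1 and 108 and 158, 153 and 178 CPM.

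In siMlx cells DXR lowered 50 of the 51 genes (31.2% of tested genes fell), at a median log2 of -1.93 (0.00 for all tested genes). PRIM1 was at -3.57, ORC1 at -3.42, MCM10 at -3.29, POLE2 at -3.13 and ASF1B at -3.11. RFC1 was the gene not called, at -0.12 (SE 0.06, edgeR adjusted p = 0.112). PCNA fell here, from 78.99, 95.2 and 109.7 to 66.3, 80.7 and 67.2 CPM, log2 -0.41 (SE 0.14, edgeR adjusted p = 0.0138), with overlap, and lost its call without siMlx replicate 3 or siMlx DXR replicate 1 or 3 (adjusted p up to 0.0939).

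In siMondoA cells, where most of these genes were already low, DXR lowered 39 (28% of tested genes fell) and raised 2 (26.2% rose), at a median log2 of -0.66 (-0.02 for all tested genes). PCNA rose, from 40.1, 37.7 and 55.1 to 89.1, 95.99 and 84.1 CPM, log2 1.03 (SE 0.14, edgeR adjusted p = 4.55e-06), and reached the level of the untreated control. POLA2, the regulatory subunit of the priming polymerase, rose from 18.8, 17.8 and 23.6 to 27.7, 29.1 and 33.5 CPM, log2 0.59 (SE 0.11, edgeR adjusted p = 0.000156). Neither gene's groups overlapped, and POLA2 shares 35.1% of its exon bases with another gene, AP000944.2. GINS1 (-0.12), ORC6 (0.22), LIG1 (0.08) and RFC1 (0.01) were not called, with edgeR adjusted p from 0.443 to 0.919, and neither were PRIM2, RFC2, DSCC1, RPA1, RPA2 and TIPIN. The largest falls were those of ASF1B, from 11.6, 12.7 and 22.9 to 2.53, 5.27 and 2.97 CPM (log2 -2.10, SE 0.27, edgeR adjusted p = 2.89e-06), and DBF4, from 13.4, 15.4 and 17.2 to 3.93, 5.01 and 4.79 CPM (log2 -1.74, SE 0.16, edgeR adjusted p = 2.43e-08). Of the genes called lower, GINS3, GINS4, POLD3 and CLSPN lost the call without at least 1 library, at adjusted p up to 0.117, 0.242, 0.161 and 0.142. Untreated siMondoA replicate 3 was such a library for all 4. POLD3 lost it in 9 of 14 alternative runs, among them RLE scaling and DESeq2.

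Whether the siRNA changed the response to DXR was tested as an interaction. Such a change cannot be told apart from a different time since transfection, should harvest day differ with DXR. For siMondoA 25 of the 51 genes had a higher interaction term, that is a smaller fall or a rise, and 0 a lower one, where 5.84% of tested genes were higher and 4.28% lower. Over all tested genes 798 terms were higher and 586 lower, a balance that upper-quartile scaling turned to 655 and 788. The median of the 51 was log2 0.72 (-0.01 for all tested genes), and the count was 21 to 36 without 1 library. GINS1 (log2 1.44, SE 0.32, edgeR adjusted p = 0.00658), POLA2 (1.31, SE 0.15, edgeR adjusted p = 2.32e-05), PCNA (1.28, SE 0.19, edgeR adjusted p = 0.000328) and MCM2 (1.15, SE 0.25, edgeR adjusted p = 0.00618) were the highest of those called. The 6 MCM genes among the 25 were MCM2 to MCM6 and MCM8.

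For siMlx the interaction was lower in 15 of the 51, that is a larger fall, and higher in 0, where 5.81% of tested genes were lower and 6.43% higher. The median was log2 -0.43 (-0.02 for all tested genes). The lowest was ORC6 (log2 -1.33, SE 0.25, edgeR adjusted p = 0.00137), which fell with DXR from 19.5, 21.9 and 27.7 to 5.47, 5.97 and 5.67 CPM in siMlx cells. The next was POLE2 (log2 -1.28, SE 0.35, edgeR adjusted p = 0.0195), from 6.23, 6.26 and 7.93 to 1.05, 0.796 and 0.486 CPM, whose call was lost without siControl DXR replicate 2 or siMlx DXR replicate 3 (adjusted p up to 0.0702). ASF1B (-1.20, SE 0.31, edgeR adjusted p = 0.0142) followed. The count rested on single libraries: it was 3 without siControl replicate 1 or 2, 4 without siMlx replicate 3 or siMlx DXR replicate 3, 5 to 7 without siMlx replicate 2, siControl DXR replicate 1 or 2 or siMlx DXR replicate 1, and 24 without siControl replicate 3.

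**Figure D4:**
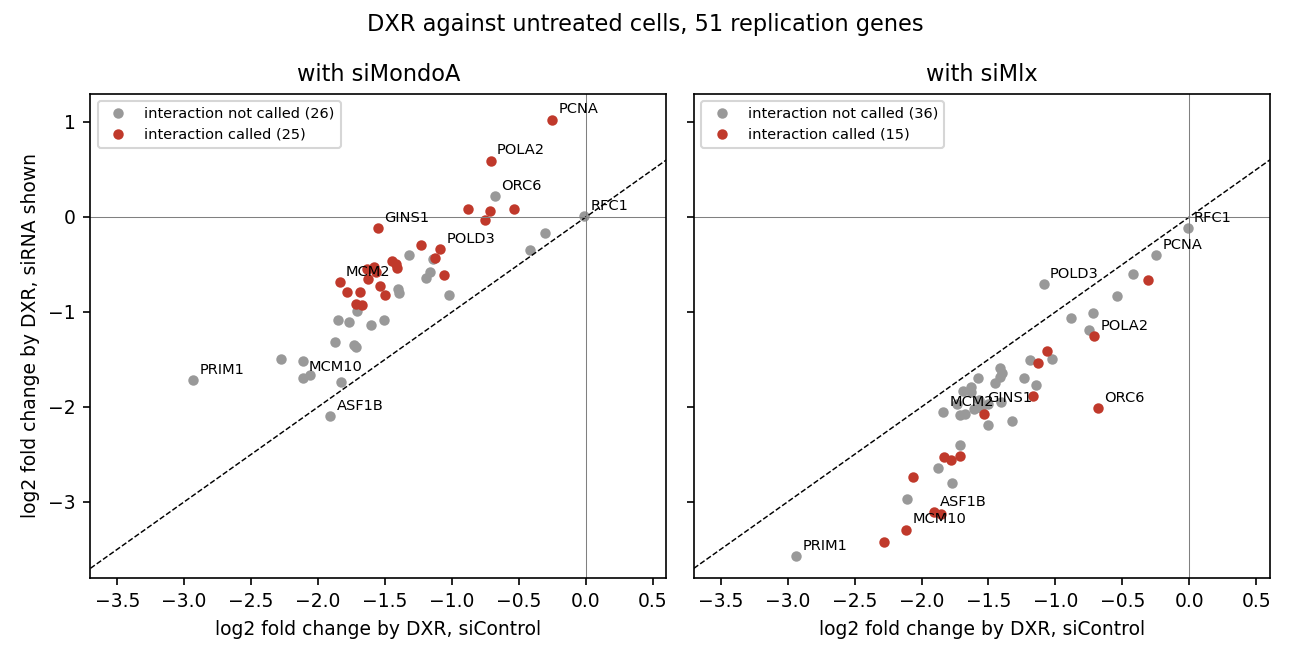
Each point is 1 of the 51 genes, with x its log2 fold change by DXR in siControl cells and y the same in siMondoA (left) or siMlx (right) cells, with the dashed line marking equal change and red marking genes with an edgeR interaction adjusted p under 0.05. With siMondoA the 25 red genes lie above the line and PCNA and POLA2 above 0; with siMlx the 15 red genes lie below it, ORC6 farthest.

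Among DXR-treated cells most of these genes were lower with either siRNA than in siControl. With siMondoA 33 fell and 0 rose (13.9% of tested genes fell and 10.9% rose), at a median log2 of -0.56 (0.01 for all tested genes), and 37 lay lower without overlap (20.1%). With siMlx 35 fell and 0 rose (16.2% and 14%), at a median of -0.51 (0.01), and 44 lay lower without overlap (22.3%). The counts were 26 to 31 and 24 to 33 with 1 library left out. Both comparisons share the siControl DXR libraries.

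With siMondoA and DXR, ASF1B was at 2.53, 5.27 and 2.97 CPM against 16.2, 16.02 and 14.4 CPM in siControl (log2 -2.10, SE 0.27, edgeR adjusted p = 1.1e-05), and CLSPN at 0.898, 2.43 and 1.49 against 6.62, 7.53 and 6.33 CPM (log2 -2.06, SE 0.32, edgeR adjusted p = 7.2e-05). All siMondoA libraries lay below all controls for both. MCM10 (-1.86), CDC45 (-1.74), CDC6 (-1.57), POLE2 (-1.06) and RNASEH2A (-0.88) were the lowest of their roles. The highest were GMNN (-0.92), called lower, and MCM8 (-0.29), CDC7 (-0.36), POLA2 (0.04), RPA1 (0.03), DNMT1 (-0.18) and PCNA (0.21), none of them called, at edgeR adjusted p from 0.111 to 0.822. PCNA was called higher without the low-count filter (edgeR adjusted p = 0.0316), and DNMT1 was called lower with the replicate number as a block (edgeR adjusted p = 0.0252). Of the 9 polymerase and primase genes 2 fell, at a median log2 of -0.17, and of the 7 single-stranded DNA binding and fork protection genes 3 fell, at -0.11. MCM4, GINS3, POLA1, POLE2, RFC2, RFC5, TIMELESS and WDHD1 lost their call without at least 1 library, at adjusted p up to 0.061 to 0.178. For all but POLE2, siMondoA DXR replicate 1 was such a library. POLE2 lost it without siControl DXR replicate 2 or siMondoA DXR replicate 3. GINS3 (edgeR adjusted p = 0.0499) lost it in 10 of 13 alternative runs, among them RLE and upper-quartile scaling and DESeq2.

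With siMlx and DXR, ORC1 was lowest, at 1.10, 1.69 and 1.03 CPM against 4.89, 3.94 and 2.92 CPM in siControl (log2 -1.60, SE 0.29, edgeR adjusted p = 0.00025). UHRF1 was at 15.7, 17.2 and 18.5 against 35.4, 29.6 and 32.99 CPM (log2 -0.93, SE 0.11, edgeR adjusted p = 2.74e-06), and POLD3 at 6.16, 8.81 and 7.35 against 13.2, 13.2 and 13.04 CPM (log2 -0.82, SE 0.15, edgeR adjusted p = 0.000239). None of the 3 overlapped its control. MCM10 (-1.12), CLSPN (-1.12), ASF1B (-1.07), POLE2 (-1.06), CDC45 (-0.82) and RFC3 (-0.60) were the lowest of their roles. ORC6, the gene that siMlx raised in untreated cells, was at 5.47, 5.97 and 5.67 against 6.67, 7.94 and 8.25 CPM (log2 -0.42, SE 0.19, edgeR adjusted p = 0.107), and was called with the replicate block (edgeR adjusted p = 0.0245). MCM8 (-0.44) and CHAF1A (-0.38) were likewise called with the block (edgeR adjusted p = 0.0104 and 0.017).

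POLE (-0.04), PCNA (-0.12), RPA1 (0.06), PRIM1 (-0.25) and RFC1 (-0.13) were not called with siMlx and DXR, at edgeR adjusted p from 0.133 to 0.8. PRIM1 and RFC1 were not called with siMondoA and DXR either (-0.21 and -0.02, edgeR adjusted p = 0.774 and 0.814). Of the 35 genes lower with siMlx, CDT1, MCM2, CDC45, GINS1, GINS2, CDC7, DBF4, POLE2, RFC2, RFC5, TIPIN and WDHD1 lost their call without at least 1 library, at adjusted p up to 0.0595 to 0.22. For all but GINS2, siMlx DXR replicate 3 was such a library. GINS2 lost it without siMlx DXR replicate 1 or 2 or siControl DXR replicate 1 or 2. TIPIN and WDHD1 each lost it in 9 of 13 alternative runs, among them RLE and upper-quartile scaling and DESeq2. CDC45 lost it in 7 of 13, among them upper-quartile scaling and DESeq2. Between the siRNAs under DXR, 6 genes were lower with siMondoA (20% of tested genes) and 4 higher (18.9%), at a median log2 of -0.06 (-0.01 for all tested genes). ASF1B (-1.02), CLSPN, ORC6 (-0.76), CDT1, POLA1 and UHRF1 were lower, and POLD3 (0.60), POLA2 (0.48), DNMT1 (0.35) and PRIM2 higher. The count lower was 2 without siMondoA DXR replicate 1 and 3 without siMondoA DXR replicate 3.

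The MCM2 to MCM7 transcripts, which encode 1 ring, were compared per length in deposited RPKM (counts scaled to gene length and library total, without TMM scaling). Their sum was 179, 179 and 227 RPKM in untreated siControl, 157, 176 and 198 with siMlx and 59.5, 64.2 and 91.8 with siMondoA. With DXR it was 55.6, 57.5 and 49.9 (siControl), 35.4, 39.0 and 34.1 (siMlx) and 32.2, 38.1 and 31.8 RPKM (siMondoA). The make-up of the sum differed between groups, which is given as a description with no test. MCM7 made up 24.4% ± 1.12 (SD, n = 3) of it in untreated siControl, 24.3% ± 1.38 with siMondoA, 19.7% ± 0.990 in siControl with DXR, 16.9% ± 1.03 in siMlx with DXR and 14.9% ± 0.806 in siMondoA with DXR. The DXR libraries' MCM7 shares lay below every untreated library. MCM4 went the other way, from 15.2% ± 0.693 in untreated siControl to 21.4% ± 0.502 in siMondoA with DXR. MCM2 was at 12.2% ± 0.187 in untreated siControl and 9.01% ± 1.21 in untreated siMondoA, without overlap.

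**Figure D5:**
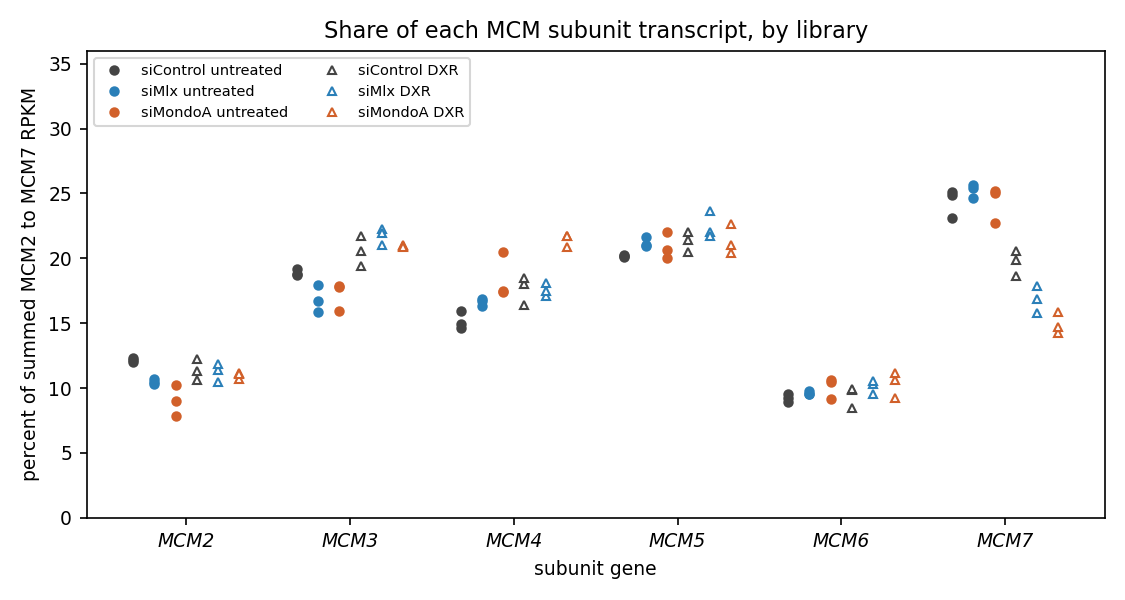
Share of each subunit in the summed RPKM of MCM2 to MCM7, 1 point per library; filled circles are untreated and open triangles DXR libraries, coloured by siRNA. MCM7 drops from 24.4% in untreated siControl to 14.9% in siMondoA with DXR (group means), while MCM4 goes from 15.2% to 21.4%.

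Levels between genes were also compared in RPKM. In untreated siControl PCNA (65.8 RPKM) and POLD2 (60.1) were highest, followed by MCM7 (47.6) and FEN1 (40.4), and POLE2 (3.10), CLSPN (2.81) and DSCC1 (2.79) were lowest of the 51. PCNA stood at the percentile 93.2 of all tested genes and DSCC1 at 34.4. Exon bases shared with exons of other genes made up 35.1% in POLA2 (AP000944.2), 30.8% in RNASEH2A (THSD8), 21.6% in PRIM1 (NACA and 2 others) and 21.0% in TIPIN (RPL9P25), mostly on the same strand. Counts of these 4 genes are thus uncertain in every comparison, and the share of their reads affected was not measured. Counts of MCM2, GINS3, GINS4 and RFC5 are uncertain where reads were not split by strand, since over 10% of their exon bases lie opposite exons of another gene, and DBF4, POLD2, PCNA, RFC3, RFC5, FEN1 and RPA2 have named pseudogenes that could share their reads.

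The word content of the promoters was set beside the calls. With siMondoA in untreated cells all 23 genes with an E2F word fell, at a median log2 of -1.42, and 19 of the 21 matched genes without one fell, at -1.35. Among tested genes outside the 51, 31.3% of the 623 with an E2F word fell and 24.0% of the 9163 without. With DXR in siControl cells the shares outside the 51 were 41.9% and 29.5%, and within them 22 of 23 and 20 of 21. Within the 51, siMondoA with DXR lowered 15 of 23 with a word and 15 of 21 without (13.9% of tested genes). For siMlx these were 4 of 23 and 4 of 21 in untreated cells (23%) and 18 of 23 and 13 of 21 with DXR (16.2%). Of the 8 genes with an E-box, 7 fell with siMondoA in untreated cells (23.3% of tested genes), and with siMlx 1 fell and 1, RPA1, rose (23% and 24.9%). The sets with and without a word were not tested against each other.

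Other genes of the pathway were described from a list of 36 replication genes outside the 51. With siMondoA in untreated cells 24 of the 36 fell and 4 rose (23.3% of tested genes each way), at a median log2 of -0.36. HELLS, a chromatin remodeller of the SNF2 family (-1.74), EXO1, a 5′ exonuclease (-2.64), MMS22L, a fork repair factor (-1.95), and TOPBP1, which helps to fire origins (-0.97), had the 4 smallest p. POLD4 (0.52), ORC4 (0.23), LRWD1 (0.23) and TOP1 (0.15) rose, of which ORC4, LRWD1 and TOP1 lost the call without 1 of siControl replicate 1, 2 or 3 or siMondoA replicate 2 or 3 (LRWD1 at edgeR adjusted p up to 0.0825). ORC4 and TOP1 also lost it without the low-count filter, at their highest edgeR adjusted p of any alternative (0.0571 and 0.182). With siMlx 5 fell and 7 rose, shares below the 23% and 24.9% of tested genes, with POLE3 (-0.55), MCM9 (-1.19) and RBBP4, a CAF-1 subunit (-0.25), among those that fell. MCMBP, an MCM binding protein, was among those that rose (0.31). DXR lowered 27 in siControl, 24 in siMondoA and 31 in siMlx cells (28.6%, 28% and 31.2% of tested genes), with SSRP1 and SUPT16H, which together form the histone chaperone FACT (-1.13 and -0.75 in siControl), the histone chaperone NASP (-1.36) and the PCNA partner PCLAF, listed as KIAA0101 (-1.94), among them. POLD4 rose in siControl (0.28; adjusted p up to 0.0846 without siControl replicate 1 or siControl DXR replicate 2) and siMlx cells (0.35), and RNASEH2C in siMondoA cells (0.25; adjusted p up to 0.163 without siMondoA replicate 1 or 3 or siMondoA DXR replicate 2 or 3). With DXR, 10 were lower with siMondoA and 14 with siMlx than in siControl (13.9% and 16.2% of tested genes), and 0 higher.

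Of 11 regulators of S phase entry, 10 fell with siMondoA in untreated cells (23.3% of tested genes). CDKN1A, the gene of the CDK inhibitor p21, rose (1.13), as did 23.3% of tested genes. E2F1 stood at -2.42, CDK2 at -1.81 and CDC25A, the phosphatase that activates CDK2, at -1.99. With siMlx in untreated cells 3 of the 11 rose and 1 fell (24.9% and 23% of tested genes). CDKN1A rose as well (1.28), with E2F3 (0.60) and CCNE1 (0.95), while CDC25A fell (-0.82). With DXR in siControl cells 9 fell and CDKN1A rose (3.34), where 28.6% of tested genes fell and 28.1% rose.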

How the data were processed

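RNA-seq libraries were analysed from a table of gene counts and a table of RPKM deposited by the authors. Reads were handled with bcl2fastq and TopHat2 2.1.1 against GRCh38, per the submitters' processing notes. Which counting program, annotation and strand setting were used is not given in the sources used here. The deposited counts are whole numbers per gene, and totals ran from 15503423 to 29219280 per library, so the lowest member counts (from 9) carry the largest counting error. The RPKM deposited by the authors are those counts scaled to gene length and library total: for 24846 genes with a count the ratio of the tables gave the same gene length in all libraries. RPKM were used only to compare levels between genes and the sum and make-up of the MCM ring transcripts. They lack the TMM factors, which ran from 1.02 to 1.07 in untreated and from 0.938 to 0.985 in DXR libraries. Falls in the RPKM sum are thus on another scale than those in CPM.

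Counts were tested with edgeR 4.0.16 (R 4.3.3, limma 3.58.1): TMM scaling, filterByExpr (13676 of 33121 listed genes kept), 1 mean per group over all 18 libraries, quasi-likelihood test with 12 residual degrees of freedom and Benjamini-Hochberg adjustment over all tested genes, in 11 comparisons. A gene is called at an adjusted p under 0.05, and log2 fold changes are those of the fit. Each SE is implied by the test: the absolute log2 fold change divided by the square root of its quasi-likelihood F statistic. The samples were grouped by the labels' siRNA and treatment. Alternatives were RLE and upper-quartile scaling, DESeq2 1.42.0, no filter, a filter of 1 CPM in 3 libraries, only the compared groups, the replicate number as a block, and each library left out. A further one, without the 3 untreated libraries numbered 3, was chosen after seeing the data. Promoter words were searched with Python 3.11.15, and gene coordinates and overlaps are from GENCODE v29.

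The 51 genes and the other lists were chosen with earlier results of these data known. Genes named with values in every library are those with the lowest and highest log2 fold change of each role, those called against the direction of most, and MCM2 to MCM7; a few others, such as PCNA and RPA3 with siMondoA, were given so after their values were seen. Of the other lists up to 4 with the smallest p, and those against the direction of most, are named.

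Replicate numbers come from the labels. Same-numbered libraries deviated together (every r over 0.1) for siMondoA against siControl in untreated cells (0.101 to 0.330), and with DXR for siMondoA (0.175 to 0.274) and siMlx (0.170 to 0.277) against siControl and for siMondoA against siMlx (0.167 to 0.256), and not in the other 5 comparisons checked. Library pairs of a group differed by more than counting noise (chi-square per degree of freedom 3.90 to 17.6), so none was merged as a copy of another and all were kept. This check cannot tell separate cultures from separate libraries of the same culture.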

Additional observations from a re-analysis of the deposited data

Results flagged for a closer look

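The results listed here differ between groups by the interaction test: the response of a gene to DXR in siRNA-treated cells against its response in siControl cells (edgeR quasi-likelihood test, adjusted p under 0.05). Values are log2 differences between the responses. No group had enough libraries for a test of outlying samples.

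With siMondoA 25 genes had a higher term. In origin loading it was CDT1 (0.99). Among the MCM genes they were MCM2 (1.15), MCM3 (0.97), MCM4 (0.81), MCM5 (0.74), MCM6 (0.80) and MCM8 (0.99). Of the helicase activation genes GINS1 (1.44) and GINS3 (0.98) were called. The polymerase and primase genes were POLA1 (1.05), POLA2 (1.31), PRIM2 (0.72), POLD3 (0.75) and POLE (0.70). PCNA (1.28), RFC2 (0.93), FEN1 (0.92) and LIG1 (0.96) were called among the clamp and Okazaki fragment genes. The fork protection and single-stranded DNA binding genes were RPA2 (0.63), TIPIN (0.78), TIMELESS (0.69) and WDHD1 (0.87). The chromatin genes were DNMT1 (0.45), CHAF1A (1.08) and CHAF1B (0.91). CDT1, MCM5, TIPIN and TIMELESS lost the call without at least 1 library, and the other 21 kept it in each alternative run.

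With siMlx 15 genes had a lower term. In origin loading they were ORC1 (-1.14), ORC6 (-1.33), CDT1 (-0.78) and GMNN (-0.81), and among the MCM genes MCM4 (-0.54), MCM7 (-0.68) and MCM10 (-1.18). DBF4 (-0.70) was called among the helicase activation genes, and POLA2 (-0.54), POLD1 (-0.72), POLE (-0.41) and POLE2 (-1.28) among the polymerases. The others were RPA1 (-0.36), DNMT1 (-0.35) and ASF1B (-1.20). Of these 15, ORC6 and ASF1B kept the call in each alternative run, and the other 13 lost it without at least 1 library.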

How the results depend on the processing

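Of 369 called pairs of a gene and a comparison, none reversed under any alternative. Lost calls numbered 7 with RLE scaling, 9 with upper-quartile scaling, 6 with DESeq2, 1 with the 1 CPM filter, 5 with only the compared groups and 0 without the filter or with the replicate block. Leaving out 1 library lost 246 of 2454. Of 35 named pairs not called, 8 were called without the filter, PCNA with DXR in siControl cells among them, 6 with only the compared groups, 2 with DESeq2, 1 with RLE scaling and 1 with the 1 CPM filter. Of the genes named outside the 51, ORC4 and TOP1 lost their call with siMondoA without the filter, and RNASEH2C with DXR in siMondoA cells with upper-quartile scaling and with DESeq2. The replicate block added the calls named in the report and, for siMlx in untreated cells, where the check did not pair the numbers, MCM2 (adjusted p = 0.0258) and TIMELESS (0.00921), and it changed no other named call. For 14 of the 18 libraries, the mean correlation with libraries of other groups was highest for those of the same number.

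With upper-quartile scaling siMlx lowered 5 genes in untreated cells, where it lowered 2833 of all 13676 tested genes. RFC1 changed sign to 0.0014 (siMondoA, untreated), 0.015 (siMlx, untreated), 0.0065 (DXR, siControl) and -0.0077 (DXR, siMondoA), as did POLE with siMlx and DXR (0.0016). Without the low-count filter 24846 genes were tested, and RFC1 was at -0.0045 with DXR in siMondoA cells. In that run siMlx lowered 14 genes in untreated cells (3246 of all 24846) and siMondoA raised 1 with DXR (1443 of all). There siMondoA against siMlx with DXR gave 12 lower (2740 of all). The interactions gave 39 higher for siMondoA (1071 of all) and 26 lower for siMlx (833 of all). Without the untreated libraries numbered 3, the siMlx interaction was lower in 27, the median with DXR in siMlx cells was -1.78, GINS1 with DXR in siMondoA cells was 0.069, and siMondoA against siMlx in untreated cells gave 1 higher, POLD3. Counts over all tested genes were not made for runs with libraries left out. Restricted to the bases before the start, 34.1% of matched promoters held an E2F word. The cause was not tested for any of these.

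With 1 library left out, siMlx in untreated cells lowered 3 to 14 genes and raised 3 to 6, siMondoA against siMlx raised 0 to 1 untreated and lowered 2 to 8 with DXR, and the siMlx interaction was lower in 3 to 24. Medians ran from -0.58 to -0.49 for siMlx with DXR, -1.97 to -1.78 for DXR in siMlx cells, 0.61 to 0.92 for the siMondoA interaction and -0.60 to -0.36 for the siMlx interaction. Genes not called changed sign. For siMondoA in untreated cells RFC1 ran from -0.094 to 9.8e-05. For siMlx in untreated cells ASF1B ran from -0.019 to 0.31, MCM10 from -0.10 to 0.27, PCNA from -0.086 to 0.16 and RFC1 from -0.072 to 0.023. For siMondoA with DXR POLA2 ran from -0.041 to 0.097, PRIM1 from -0.45 to 0.086, RFC1 from -0.063 to 0.027 and RPA1 from -0.037 to 0.080. For siMlx with DXR PRIM1 ran from -0.46 to 0.056 and POLE from -0.067 to 0.023. RFC1 with DXR in siControl cells ran from -0.062 to 0.033. With DXR in siMondoA cells GINS1 ran from -0.38 to 0.069, LIG1 from -0.052 to 0.22, ORC6 from -0.027 to 0.44 and RFC1 from -0.031 to 0.060. Depth limits the genes with the lowest counts most, such as PRIM1 and MCM10 with DXR.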
